A study of Homo sapiens with 4 samples.

Results

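The genes examined here make and use glutathione or answer to NRF2. They are GCLC, GCLM and GSS, which build glutathione, GSR, which regenerates it, GPX1 and GPX4, which spend it on peroxides, and the NRF2 targets NQO1, HMOX1, TXNRD1 and SRXN1. Members were taken as every gene probe on the array whose gene name is 1 of these 10 names. That gave 10 genes of the 43311 gene names on the array. GSR and GPX1 had 2 probes each and the other members 1 probe each. With AZA, HMOX1 was 3.40-fold higher in MDS-L and 1.47-fold higher in MDS-L/CDA, SRXN1 was 1.70-fold and 1.22-fold higher, and GCLC was 1.56-fold lower in MDS-L. The GCLC difference passed 1.5-fold under 2 of the 8 other ways of processing that could change it.

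Glutathione is a small peptide whose free thiol keeps the cytosol reduced. Cells join glutamate to cysteine with the GCLC and GCLM heterodimer and add glycine with GSS, glutathione peroxidases oxidise the product while they reduce peroxides, and GSR reduces it again with NADPH. The transcription factor NRF2, encoded by NFE2L2, is held down by KEAP1 and, when that restraint is lifted, binds antioxidant response elements together with small MAF proteins, whereas BACH1 represses some of the same elements, most clearly that of HMOX1.

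RNA was measured in 4 samples, 1 for each combination of line and treatment, on 4 one-colour arrays. MDS-L is a human myeloid line from myelodysplastic syndrome (MDS), and MDS-L/CDA is its derivative made to carry CDA, the enzyme that deaminates cytidine analogues, which the study describes as resistant to the drug. Each was cultured for 72 h with vehicle, which was 0.1% DMSO, or with 1 μM 5-azacytidine (AZA), a nucleoside that traps DNA methyltransferases. Both lines and both treatments shared a medium that held 2-mercaptoethanol at 50 μM, IL-3, at 20 ng/mL by the labels, where the study's methods give another amount, and serum (FBS) at 10%. The first of these is itself a thiol reductant, so every value below was taken in its presence. The titles and the design text give the AZA dose as 1 mM, other label fields as 1 μM. In 1 label field the MDS-L AZA sample and the MDS-L/CDA vehicle sample carry the opposite treatment, and their titles, descriptions and source names give the groups used here.

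Each condition had 1 array, so differences have no replicate check. No test was made, and no value below carries an error between cultures. The spread between spots of a probe on an array was used as technical error, taken for each probe from those of similar brightness among 300 probes with 10 spots each. It is given as the spot SD of a log2 ratio. Signals are the background-subtracted brightness of a probe divided by the 75th percentile of its array, which lay between 37.3 and 52.9. They compare arrays for a given probe and do not compare genes, since probes differ in brightness for equal RNA. A signal was taken as measured where the scanner software flagged it well above background. In bulk RNA, fewer cells with a transcript and less transcript per cell cannot be told apart.

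The label of a myeloid line was checked first. All 10 myeloid blast markers were well above background on all 4 arrays, among them CD34, CD33 and SPI1. Fibroblast markers were below background on every array. Of 3 T cell markers 2 were well above background on the MDS-L AZA array and 1 on the MDS-L/CDA AZA array, against 0 with vehicle, and CD3E was below background on all 4. CD3D stood at 0.177 without and 4.47 with AZA in MDS-L, and KIT, a myeloid blast marker, at 0.503 and 23.8. CD79A, KRT8 and KRT18 were well above background on all 4 arrays. The part of these transcripts in the redox values was not tested. CDA was below background on all 4 arrays, with signals between 0.0943 and 0.146. Its probe lies near the end of the transcript, at hg19 positions 20945069 to 20945128 of chromosome 1, and whether the introduced copy carries that stretch is not given in the sources used here, so the probe does not check the MDS-L/CDA label.

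The array's probes are 60 bases long. Their sequences show what each signal reads, and the ones printed here are those of the members whose values need them. The HMOX1 probe, on which the largest change among the members rests, begins at chr22:35790122-35790151 on the plus strand of hg19. It had stop codons in all 3 frames, and its first 30 bases are shown.
HMOX1: tggggagggaggtgtttaacggcactgtgg
GPX1 was read at the end of the message and in its coding part, and the probes did not move alike. The end stretch, at chr3:49394616-49394645 on the minus strand, holds the polyadenylation signal, which is in capitals. The coding probe, at chr3:49394925-49394984, is shown whole.
GPX1 end: agtttccccactAATAAAgtgctgggtgtc
GPX1 coding: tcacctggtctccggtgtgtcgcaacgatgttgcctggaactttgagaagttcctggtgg
GPX4, at chr19:1105673-1105732, and TXNRD1, at chr12:104732949-104733008, were read on the plus strand by stretches with an open reading frame.
GPX4: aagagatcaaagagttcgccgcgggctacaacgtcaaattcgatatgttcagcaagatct
TXNRD1: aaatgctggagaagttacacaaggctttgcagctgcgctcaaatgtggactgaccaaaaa
Probes were also searched for runs of 16 or more bases that probes of other gene names hold. The GCLM probe shared such a run with 7 probes of other names on its strand, the longest of 23 bases, and all 7 were well above background on every array. The coding GPX1 probe shared a run of 16 bases with 1 such probe. The remaining member probes shared none, while 10.6% of all 58185 probes did.

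Of the 3 genes of glutathione synthesis, GCLC alone was at least 1.5-fold different with AZA, in MDS-L. GCLC, read at hg19 chr6:53362197-53362256 on the minus strand, encodes the catalytic subunit of the rate-limiting ligase. Its signal was 18.9 without and 12.1 with AZA in MDS-L, and 17.4 without and 16.6 with AZA in MDS-L/CDA. The MDS-L AZA array stood below the other 3 at this scaling. With no scaling GCLC was lower in MDS-L/CDA AZA than in MDS-L AZA, by a log2 ratio of -0.05. In MDS-L it was 1.56-fold lower with AZA, a log2 ratio of -0.64 with a spot SD of 0.28. Under the 8 other ways of processing that could change it, the log2 ratio lay between -1.18 and -0.39 and passed 1.5-fold under 2. In MDS-L, 15.6% of all genes had a lower ratio. In MDS-L/CDA its log2 ratio was -0.06, with a spot SD of 0.36.

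GCLM, the modifier subunit that raises the affinity of GCLC for glutamate, varied least among the members measured on all arrays. Its signal was 30.8 without and 27.2 with AZA in MDS-L, and 30.5 without and 32.0 with AZA in MDS-L/CDA, a range of 1.18-fold. The log2 ratio of AZA to vehicle was -0.18 in MDS-L and 0.07 in MDS-L/CDA, both within their spot SD of 0.25 and 0.35. Its sign in MDS-L turned with the scaling, up to 0.07.

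GSS, read at chr20:33516382-33516441 on the minus strand, adds glycine in the last step. Its signal was 77.5 without and 73.9 with AZA in MDS-L, and 73.1 without and 98.5 with AZA in MDS-L/CDA. At this scaling the first 3 lay close together and the MDS-L/CDA AZA array above them. The AZA ratio was 0.954 in MDS-L, where its sign turned with the processing, and 1.35 in MDS-L/CDA, where the log2 ratio of 0.43 exceeded its spot SD of 0.31.

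**Figure D1:**
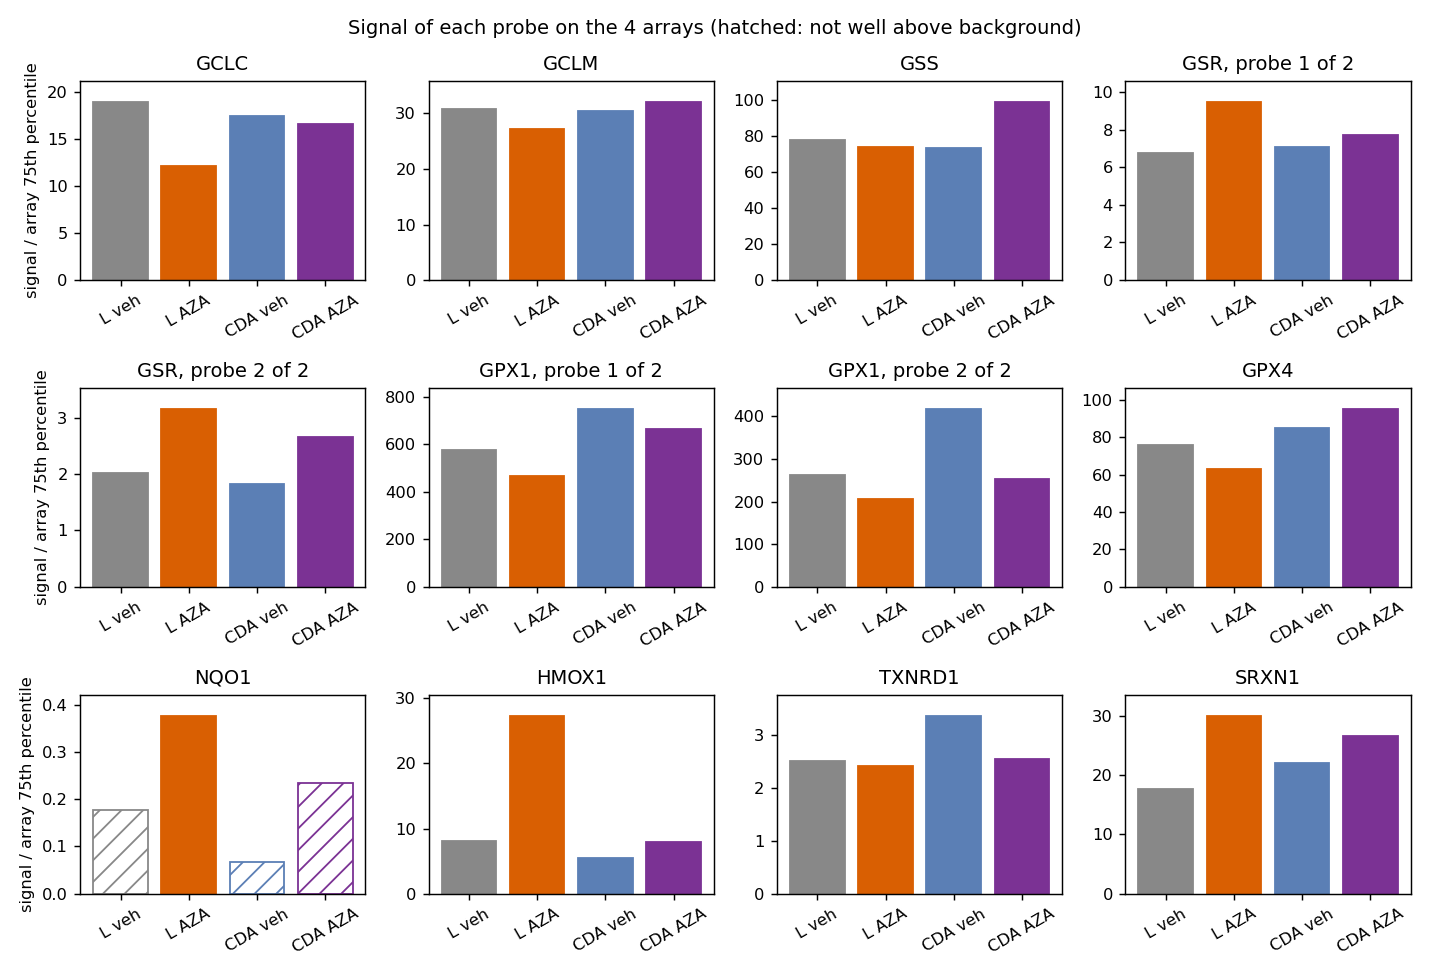
Signal of each of the 12 member probes on the 4 arrays (vertical axis: signal divided by the array's 75th percentile, from 0, with its own scale in each panel). L is MDS-L, CDA is MDS-L/CDA and veh is vehicle. Each bar is 1 array, and hatched bars were not well above background. HMOX1 stands highest in MDS-L AZA, at 27.3, and GCLC lowest there, at 12.1.

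GSR, the flavoprotein that returns oxidised glutathione to its reduced form, was the glutathione-cycle gene that was higher with AZA by both of its probes in both lines. They lie on chromosome 8 of hg19, at positions 30536969 to 30537028 and 30536266 to 30536325. The brighter probe gave 6.74 without and 9.45 with AZA in MDS-L, and 7.08 without and 7.74 with AZA in MDS-L/CDA. The dimmer probe gave 2.02, 3.15, 1.82 and 2.66 on the same arrays. On both, the AZA array was above the vehicle array of its line. For the brighter probe the ratio was 1.40 in MDS-L and 1.09 in MDS-L/CDA, and for the dimmer 1.56 and 1.46. The log2 ratio in MDS-L exceeded its spot SD by both probes, at 0.49 against 0.34 and at 0.64 against 0.38, and in MDS-L/CDA by neither. The log2 ratio of GSR in MDS-L passed 1.5-fold under 6 of the 10 other ways of processing that could change it, up to 0.74 with spike-ins, and was -0.05 when each array was scaled by its median.

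Neither peroxidase passed 1.5-fold with AZA in MDS-L by its brightest probe, and the log2 ratios there reached 0.01 for GPX1 and 0.04 for GPX4 under other processing. GPX1, the abundant selenoenzyme that removes hydrogen peroxide, gave 576 without and 466 with AZA in MDS-L, and 748 without and 663 with AZA in MDS-L/CDA by the probe at the end of its message. The coding probe gave 262, 206, 417 and 252. Each probe was highest in MDS-L/CDA vehicle and lowest in MDS-L AZA at this scaling. In MDS-L the probes gave alike ratios with AZA, 0.809 and 0.787. In MDS-L/CDA they did not, since the end probe gave 0.886 and the coding probe 0.604, a log2 ratio of -0.73 with a spot SD of 0.26. The coding probe alone passed 1.5-fold there. The spot SD of the end probe's log2 ratio there, -0.18, was 0.23.

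GPX4, the selenoenzyme that reduces lipid hydroperoxides in membranes and holds off ferroptosis, gave 75.8 without and 62.8 with AZA in MDS-L, and 84.8 without and 94.9 with AZA in MDS-L/CDA. Both MDS-L/CDA arrays stood above both MDS-L arrays at this scaling. Before scaling the GPX4 brightness was 3983 in MDS-L vehicle, and 3456 and 3534 in MDS-L/CDA vehicle and AZA, so that order rests on the scaling. Its log2 ratio with AZA was -0.27 in MDS-L, with a spot SD of 0.22, and 0.16 in MDS-L/CDA, with a spot SD of 0.30.

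**Figure D2:**
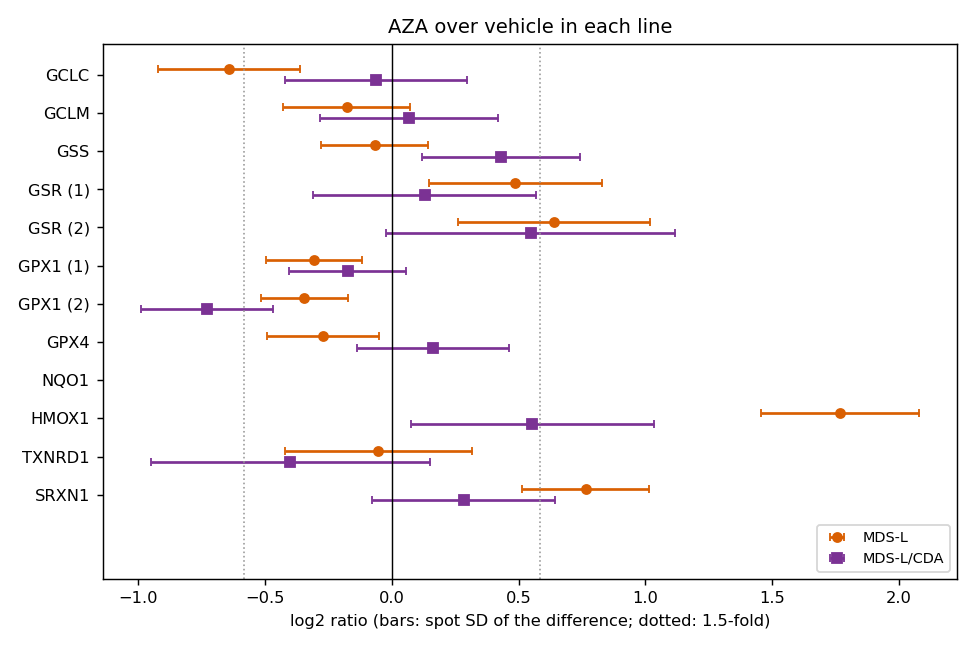
Log2 ratio of AZA to vehicle for each member probe (horizontal axis) in MDS-L (circles) and MDS-L/CDA (squares), with bars of 1 spot SD either way and dotted lines at 1.5-fold. Numbers in brackets tell the probes of a gene apart, and NQO1 has no point because it was not measured on both arrays of a line. HMOX1 in MDS-L, at 1.77, lies farthest from 0.

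HMOX1 breaks heme down to biliverdin, iron and carbon monoxide and is the classical stress-induced NRF2 and BACH1 target. Its probe is printed on 10 spots of each array. In MDS-L vehicle the spots ranged from 6.45 to 10.4 with a median of 7.72. In MDS-L AZA 9 spots, after 1 flagged spot was left out, ranged from 22.4 to 32.2 with a median of 27.6. The AZA spots all lay above the vehicle spots, and the mean was 3.40-fold higher, a log2 ratio of 1.77 with a spot SE of 0.106.

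In MDS-L/CDA the HMOX1 spots ranged from 3.25 to 7.01 with vehicle, with a median of 5.86, and from 6.42 to 10.6 with AZA, with a median of 8.65. These ranges overlapped. AZA gave a mean 1.47-fold higher, a log2 ratio of 0.55 with a spot SE of 0.142. The spread between spots covers printing and scanning, not cultures. Among the 15104 genes measured on both MDS-L arrays, 1.53% had a higher ratio than HMOX1, and among the 14137 measured on both MDS-L/CDA arrays 8.77% had. HMOX1 kept at least a 2-fold difference in MDS-L under all 8 other ways of processing that could change it, with log2 ratios between 1.23 and 2.07.

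**Figure D3:**
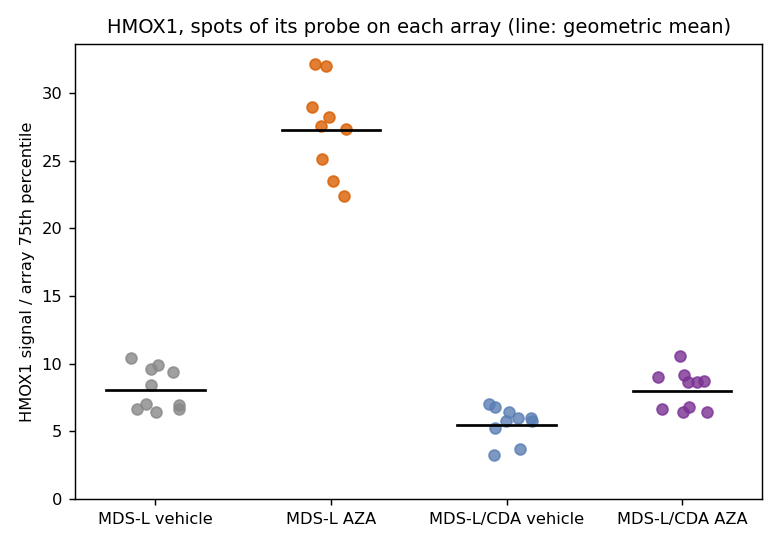
HMOX1 signal of each spot of its probe (points; vertical axis: signal divided by the array's 75th percentile) on the 4 arrays (horizontal axis), with the geometric mean as a line. The 9 spots of MDS-L AZA lie between 22.4 and 32.2, above every spot of the other arrays, the highest of which is at 10.6.

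SRXN1, read at chr20:627563-627622 on the minus strand, encodes sulfiredoxin, which repairs overoxidised peroxiredoxins. It gave 17.7 without and 30.02 with AZA in MDS-L, and 22.0 without and 26.7 with AZA in MDS-L/CDA. The AZA array was the higher in each line. The ratio in MDS-L was 1.70, a log2 ratio of 0.76 with a spot SD of 0.25, and 6.95% of genes had a higher one. It passed 1.5-fold under 7 of the 8 other ways of processing that could change it and dropped to a log2 ratio of 0.22 with each array scaled to its median. In MDS-L/CDA the log2 ratio was 0.28 with a spot SD of 0.36.

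TXNRD1, the cytosolic thioredoxin reductase, gave 2.51 without and 2.42 with AZA in MDS-L, and 3.37 without and 2.56 with AZA in MDS-L/CDA. At this scaling the MDS-L/CDA vehicle array was the highest and the other 3 were close together. Its log2 ratio with AZA was -0.05 in MDS-L and -0.40 in MDS-L/CDA, both inside their spot SD of 0.37 and 0.55. In MDS-L it reached 0.20 when scaled by spike-ins.

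NQO1, a quinone reductase and another classical NRF2 target read at chr16:69744274-69744333 on the minus strand, was near the detection limit throughout. It gave 0.176 without and 0.376 with AZA in MDS-L, and 0.0661 without and 0.234 with AZA in MDS-L/CDA, and was well above background on the MDS-L AZA array alone. With the vehicle signal set to the lowest signal well above background on its array, NQO1 was 1.98-fold higher with AZA in MDS-L. That is no strict bound, since unflagged signals can lie above that level, such as the T cell marker CD2 at 0.217 there. It rests on 1 spot per array, with a spot SD of 0.35, and no value under other scalings is given. In MDS-L/CDA both arrays were below background, and no fold is given.

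Counted together, 9 of the 10 members were measured on both arrays in each line. In MDS-L, HMOX1 and SRXN1 passed 1.5-fold upward with AZA, 2 of 9 beside 10.3% of all genes, and GCLC passed it downward, 1 of 9 beside 18.3%. At 2-fold, HMOX1 was higher, beside 4.44% of all genes, and 0 members were lower, beside 5.90%. The median log2 ratio of the members was -0.07, and that of all genes -0.16. HMOX1 and SRXN1 lie above the array's typical gene, and the median of the members does not lie far from it.

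In MDS-L/CDA, 0 of the 9 members were at least 1.5-fold higher or lower with AZA by their brightest probe. All genes gave 7.90% higher and 8.99% lower there, and at 2-fold 2.00% higher and 2.83% lower. The median of the members was 0.13 on the log2 scale and that of all genes 0.01. HMOX1, at 1.47-fold, came nearest to the threshold. The 2 lines' AZA responses were not tested against each other, since neither has a second array.

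The lines were also compared without AZA. Of 9 members, 0 were at least 1.5-fold higher or lower in MDS-L/CDA than in MDS-L with vehicle, while 7.38% of 14510 genes were higher and 6.88% lower, and the median was 0.07 for the members and 0.09 for all genes. HMOX1 had the lowest ratio, 1.47-fold lower in MDS-L/CDA, a log2 ratio of -0.56 with a spot SD of 0.41. GPX1 was 1.30-fold higher by its end probe and 1.59-fold by its coding probe, and both log2 ratios, 0.38 and 0.67, exceeded their spot SD of 0.20. TXNRD1 was 1.35-fold higher, a log2 ratio of 0.43 with a spot SD of 0.41. SRXN1 was 1.24-fold higher. The spot SD leaves out the scaling. With each array scaled to its median, the log2 ratios of GPX1 by its end probe, TXNRD1 and SRXN1 were -0.15, -0.09 and -0.21, so their direction was not held. That of HMOX1 lay between -1.08 and -0.34 under other processing.

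With AZA the lines differed in HMOX1 most. It was 3.41-fold lower in MDS-L/CDA AZA than in MDS-L AZA, a log2 ratio of -1.77 with a spot SE of 0.101, and the spots did not overlap. It was the 1 member at least 1.5-fold lower, beside 9.08% of 14542 genes. GPX4 was the 1 member at least 1.5-fold higher, at 1.51-fold, beside 21.5% of genes. Its log2 ratio of 0.60 had a spot SD of 0.28, and it passed 1.5-fold under 1 of the 8 other ways of processing that could change it, with values between 0.09 and 0.65. GPX1 by its end probe, GCLC and GSS were 1.42-fold, 1.37-fold and 1.33-fold higher, and GPX1 by its coding probe 1.22-fold. With no scaling the log2 ratios of the GPX1 end probe, GCLC and GSS were 0.00, -0.05 and -0.09, so their direction was not held. The 9 members and all genes each had a median of 0.23. These ratios share their arrays with the AZA ratios above.

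**Figure D4:**
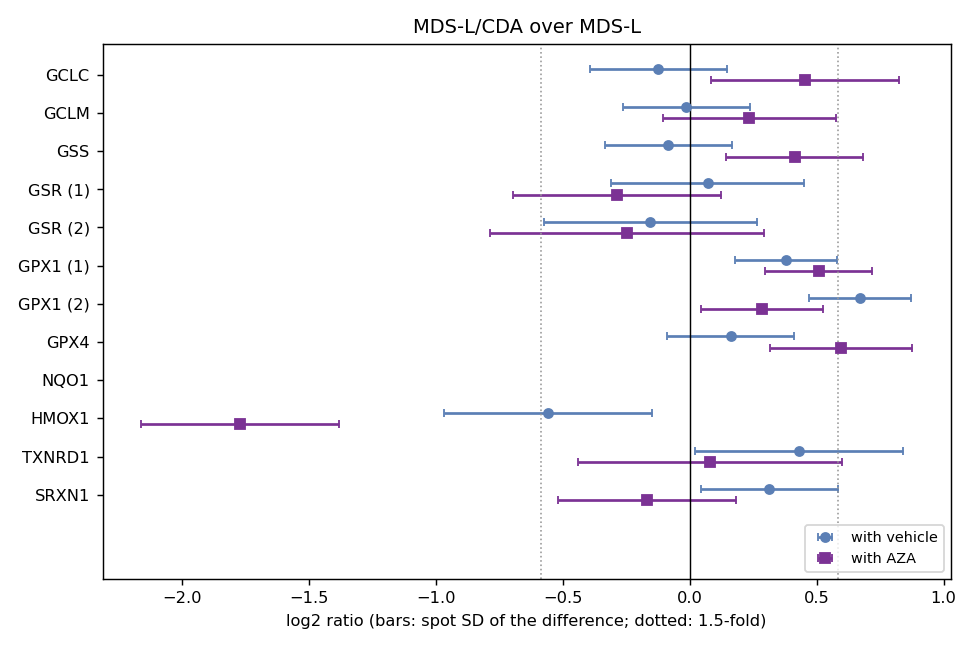
Log2 ratio of MDS-L/CDA to MDS-L for each member probe (horizontal axis) with vehicle (circles) and with AZA (squares), with bars of 1 spot SD either way and dotted lines at 1.5-fold. HMOX1 lies at -0.56 with vehicle and -1.77 with AZA.

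The counts of the lists that follow are read beside the share of all genes past 1.5-fold with AZA, which was 10.3% higher and 18.3% lower in MDS-L and 7.90% higher and 8.99% lower in MDS-L/CDA, and beside the medians of all genes, -0.16 and 0.01. No list was tested. A list gene unflagged on 1 array of a pair was set to the lowest flagged signal there, or kept if higher. Its ratio is then given as at least a value, which is no strict bound, since unflagged signals can lie above that level. The regulators of the pathway gave no single direction. NFE2L2 itself was below background on all 4 arrays by its only probe, with signals between 0.0438 and 0.148, so its RNA could not be compared. KEAP1 gave log2 ratios with AZA of -0.15 in MDS-L and 0.08 in MDS-L/CDA. BACH1, the repressor, gave -0.08 and 0.63. MAFF, a small MAF partner, was at 0.275 in MDS-L vehicle and 0.722 in MDS-L AZA, a log2 ratio of 1.39, and at least 1.56 higher in MDS-L/CDA on that scale. In MDS-L it was 0.35 with normexp and quantile normalization. NFE2, the erythroid relative of NRF2, went from 89.2 to 231 in MDS-L, a log2 ratio of 1.37, with 0.53 in MDS-L/CDA. Of 11 regulators measured in MDS-L, 3 were at least 1.5-fold higher and 3 lower, and of 10 in MDS-L/CDA 2 were higher and 0 lower.

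Other NRF2 targets were split. Of 18 measured, AZA left 7 at least 1.5-fold higher and 3 lower in MDS-L, and 3 higher and 0 lower in MDS-L/CDA. The medians were -0.03 and 0.15. SLC7A11, the cystine importer that feeds glutathione synthesis, was at 9.92 in MDS-L vehicle and 23.8 in MDS-L AZA, a log2 ratio of 1.26, but went from 11.4 to 8.44 in MDS-L/CDA, a log2 ratio of -0.43. OSGIN1, an oxidative-stress growth regulator, gave 1.32 in MDS-L and 0.54 in MDS-L/CDA. ABHD4, a lipase, gave 1.25 and 0.65, and EPHX1, the microsomal epoxide hydrolase, gave 1.04 and 0.61. MGST1, a membrane glutathione transferase, went the other way, at -1.53 and -0.44.

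Genes that carry or split glutathione were mixed, and single genes among them differed widely. CHAC1, which degrades glutathione, was below background in MDS-L vehicle, at 0.0981, and at 5.34 in MDS-L AZA, at least 4.81 higher on the log2 scale, and it was below background on both MDS-L/CDA arrays. Its second probe was below background on all 4 arrays. GGT7, of the glutamyl transferase family, was at least 1.13 higher in MDS-L. SLC25A40, a mitochondrial glutathione carrier, was 1.48-fold higher with AZA in MDS-L and 2.83-fold lower in MDS-L/CDA, where it had been 1.41 with vehicle against 0.343 in MDS-L vehicle. Without background correction its log2 ratio in MDS-L/CDA was -0.47. In all, 1 of 11 measured transport and breakdown genes was at least 1.5-fold higher with AZA in MDS-L and 0 lower, and 2 were higher and 1 lower in MDS-L/CDA. The medians were -0.30 and 0.02.

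Among glutathione transferases, 3 of 11 measured were at least 1.5-fold higher in MDS-L and 2 lower, and 4 were higher and 0 lower in MDS-L/CDA, with medians of -0.05 and 0.26. LTC4S, which conjugates glutathione to a leukotriene, went from 2.53 to 11.7 in MDS-L, a log2 ratio of 2.22, and gave 0.63 in MDS-L/CDA. HPGDS, the prostaglandin D synthase of hematopoietic cells, gave 0.75 and 1.03. GSTM2 was at least 1.84 higher in MDS-L and GSTM5 at least 1.69 lower, both on the log2 scale, and both were below background on the 2 MDS-L/CDA arrays. The GSTM genes are alike in sequence, and cross-hybridisation between them was not tested.

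**Figure D5:**
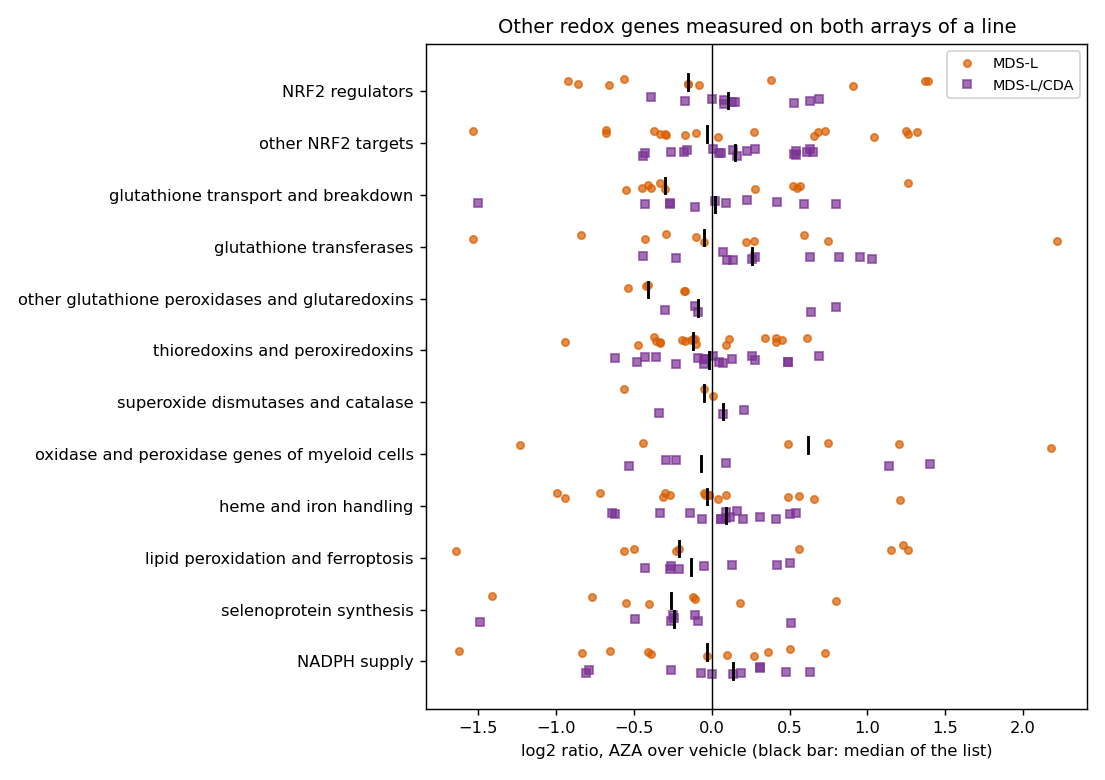
Log2 ratio of AZA to vehicle (horizontal axis) for the genes of 12 other redox lists (rows), each point 1 gene measured on both arrays of MDS-L (circles) or MDS-L/CDA (squares), with black bars at the list medians. Genes not measured on both arrays, such as CHAC1, have no point. The myeloid oxidase list has the highest MDS-L median, at 0.62, which is 0.08 with each array scaled to its median.

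The remaining lists gave few or mixed changes. Of 5 other glutathione peroxidases and glutaredoxins, 0 passed 1.5-fold in MDS-L and 2 were higher in MDS-L/CDA, with medians of -0.41 and -0.09. Of thioredoxins and peroxiredoxins, 1 of 19 was higher and 1 lower in MDS-L and 1 of 18 each way in MDS-L/CDA, with medians of -0.12 and -0.02. MSRB3, a methionine sulfoxide reductase, was at least 1.69 lower on the log2 scale in MDS-L/CDA than in MDS-L with vehicle. Superoxide dismutases and catalase had 0 of 3 past 1.5-fold in either line, with medians of -0.05 and 0.07.

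Oxidase genes of myeloid cells, which make rather than remove superoxide, included 3 of 6 at least 1.5-fold higher with AZA in MDS-L and 1 lower, and 2 higher and 0 lower in MDS-L/CDA, with medians of 0.62 and -0.07. The median in MDS-L was 0.08 with each array scaled to its median. NCF1 and NCF4, cytosolic subunits of the phagocyte oxidase, gave log2 ratios of 2.18 and 1.20 in MDS-L and 1.14 and 1.40 in MDS-L/CDA. CYBB, the catalytic subunit, was below background on all 4 arrays. NCF1 has near-identical pseudogenes, whose part in its signal was not tested.

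Heme and iron genes, the setting in which HMOX1 works, had 2 of 16 higher and 3 lower in MDS-L and 0 higher and 2 lower in MDS-L/CDA, with medians of -0.03 and 0.09. SLC48A1, a heme transporter, gave 1.21 in MDS-L and 0.12 in MDS-L/CDA. Lipid peroxidation and ferroptosis genes had 3 of 9 higher and 1 lower in MDS-L and 0 of 8 past 1.5-fold in MDS-L/CDA, with medians of -0.21 and -0.13. In MDS-L, ACSL4, which loads polyunsaturated lipids, gave 1.15, AIFM2, a ubiquinone reductase, 1.23 and DHODH, of pyrimidine synthesis, -1.64. With normexp and quantile normalization AIFM2 gave 0.30. In MDS-L/CDA ACSL4 gave 0.42, AIFM2 at least 0.62 and DHODH -0.21.

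Selenoprotein synthesis genes, on which GPX1, GPX4 and TXNRD1 depend, had 1 of 8 higher and 2 lower in MDS-L and 0 higher and 1 lower in MDS-L/CDA, with medians of -0.26 and -0.25. LRP8, a selenoprotein P receptor, was lower with AZA in both lines, by log2 ratios of -1.41 and -1.49. NADPH supply genes, on which GSR and TXNRD1 draw, had 1 of 11 higher and 3 lower in MDS-L and 1 higher and 2 lower in MDS-L/CDA, with medians of -0.03 and 0.14. IDH1, a cytosolic NADPH source, gave -1.62 and -0.79. AKR1C3, an aldo-keto reductase among the NRF2 targets, was at a log2 ratio of -1.25 in MDS-L/CDA against MDS-L with vehicle.

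Promoters were read for the antioxidant response element core, TGACNNNGC on either strand, in windows of 250 bases before to 50 after each start (RefSeq, GRCh38.p14). The core overlaps the AP-1 site where its free bases complete TGACTCA. Of the 10 members 7 had a window, namely GCLC, GCLM, GPX1, GPX4, NQO1, TXNRD1 and SRXN1. GCLM and TXNRD1 held the core, 2 of 7, and 16.1% of the 27305 genes in the table did. GCLM held TGACTAAGC on the strand opposite to the gene, beginning 34 bases before its start. TXNRD1 held TGACTTCGC 99 bases before its first start and TGACAAAGC, on the opposite strand, 102 bases before its second. A further match at the first start, TGACGGAGC at position -8 on the opposite strand, is not printed in its stretch. A match is a description of these letters and not a site that was shown to be bound. Lack of a match does not show that a gene has no such element, since bases outside the windows were not read. The stretches are printed with the match in capitals as it lies on the strand of the gene, for GCLM at chr1:93909431-93909489 on the minus strand and for TXNRD1 at chr12:104215655-104215714 and chr12:104286905-104286964 on the plus strand.
GCLM: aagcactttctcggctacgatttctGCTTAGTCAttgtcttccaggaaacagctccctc
TXNRD1 first start: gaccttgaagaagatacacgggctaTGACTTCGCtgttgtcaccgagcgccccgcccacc
TXNRD1 second start: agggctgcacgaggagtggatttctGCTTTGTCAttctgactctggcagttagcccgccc
HMOX1, GSR and GSS were not in the table.

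AZA blocks DNA methylation, and CpG content was therefore described for the same windows. GCLC and GCLM had observed over expected CpG ratios above those of 98.4% and 97.3% of all windows, and that of GCLC was 1.13. SRXN1 stood at 0.986. GPX1, at 0.632, and NQO1, at 0.506, lay near the median of 0.579. GPX4 had 3 starts with ratios between 0.931 and 1.05, and TXNRD1 had 1.08 at its first start and 0.562 at its second. No methylation was measured in these samples.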

How the data were processed

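RNA of 4 samples was hybridised to 4 one-colour Agilent arrays. The authors deposited the scanner output, made with Feature Extraction 10.7.1.1 per the file headers, whose intensity values are background-subtracted within an array and not normalized between arrays, with flags for spots. They also deposited a value table of intensity for 51680 probes, used as an alternative. After sorting, no columns lay over 0.039 apart on the log2 scale, and how it was made is not given in the sources used here.

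Controls and outlier spots were removed. The log2 intensity of a probe was the mean of its remaining spots, less the 75th percentile of the array. Of 58201 probes 16 were dropped. A probe was measured where most of its spots were flagged well above background, and a gene was read by its brightest probe. A change was counted at 1.5-fold, because with 1 array per condition no test was possible, so the number of arrays limits the precision. A ratio of 2 with a Z score of 2, the thresholds the study set for upregulation, was an alternative. The study's text does not give its Z formula. Here Z was the log2 ratio divided by the SD in 1 of 10 brightness bins, counted in both directions, and may differ from the study's. Samples were grouped by title, description and source name. The genes and the 12 lists (155 genes, 153 on the array, 1 under an older symbol) were chosen with earlier results of these data known. From the lists NFE2L2, KEAP1, BACH1 and genes at least 2-fold changed were named, at most 5 a list for AZA and 3 for the lines. A gene and a probe sequence under these rules are not reported here. CYBB, and the markers named, were chosen after values were seen. The percentile scaling and the ratios were run on simulated data with equal noise for all probes. That run does not check the detection flags or the choice of probe. Alternatives were 5 other scalings, 2 background corrections, the authors' table, 2 rules for several probes, a wider filter and 2 call rules. They are not independent checks. The authors' table shifted the AZA ratios in MDS-L by a median of 0.118 on the log2 scale and quantile normalization by 0.116. Using no scaling shifted them by 0.011. Python 3.11.15, numpy 2.4.6, pandas 2.3.3, matplotlib 3.10.9, R 4.3.3 and limma 3.58.1 (normexp) were used. Probe positions follow the files' hg19 columns.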

Additional observations from a re-analysis of the deposited data

Results flagged for a closer look

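Only the 10 genes and those named from the lists by rule were searched for AZA ratios of opposite sign in the 2 lines. Other list genes also had opposite signs, such as NFE2L3 at -0.92 in MDS-L and 0.13 in MDS-L/CDA, and are not counted here. Each line had 1 array per treatment, and no difference between the lines was tested. Of the genes found by this search, SLC7A11 passed 1.5-fold in MDS-L, SLC25A40 and BACH1 passed it in MDS-L/CDA, and GCLM, GSS, GPX4 and KEAP1 passed it in neither. Given as the log2 ratio in MDS-L/CDA minus that in MDS-L, the differences were 0.25 for GCLM, 0.50 for GSS and 0.43 for GPX4 among the 10 genes. For SLC7A11 the value was -1.69 and for SLC25A40 it was -2.07. For KEAP1 it was 0.23 and for BACH1 it was 0.71. The direction of GCLM, GSS, GPX4, KEAP1 and BACH1 in MDS-L turned with the processing: the log2 ratio reached 0.07 for GCLM, 0.23 for GSS, 0.04 for GPX4, 0.10 for KEAP1 and 0.18 for BACH1 under other processing.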

How the results depend on the processing

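No paired analysis was possible because each condition had 1 array. The median log2 ratio of all probes measured in MDS-L shifted by -0.54 with each array scaled to its median and by 0.25 with spike-in probes, and that of the lines with vehicle by -0.52 and 0.22, so small changes of the 10 genes have no settled direction. In MDS-L the median of the members became -0.61 with median scaling and 0.18 with spike-ins, and the count past 1.5-fold became 7 with median scaling. The count of 3 fell to 1, HMOX1, both at 2-fold and at a ratio of 2 with a Z score of 2. In MDS-L/CDA the count of 0 became 1 with spike-ins, 1 with normexp and quantile normalization and 1 by the probe with the largest ratio. Between the lines with vehicle the median became -0.45 with median scaling and -0.30 with no scaling. The count of 0 became 3 with median scaling, 2 with spike-ins, and 1 each with probes measured on all arrays as the scale, with no scaling, without background correction and by the probe with the largest ratio. For single members 244 alternative values lay within 1 spot SD of the reported one and 60 did not, leaving out settings that could not change a value, namely the probe rules for genes with 1 probe and the wider filter, and no member past 1.5-fold changed direction. Before scaling, the median brightness of the arrays lay between 3.12 and 4.58, at 3.12 in MDS-L vehicle and 4.58 in MDS-L AZA. The lowest brightness flagged well above background lay between 9.98 and 11.1, so median scaling used a level under the detection limit. The causes of the shifts between ways of processing were not tested. Signals below background limit NQO1 and NFE2L2. Of the list genes past 1.5-fold in MDS-L, the lowest values of EPHX1 and HPGDS were 0.50 and 0.21, and in MDS-L/CDA those of ABHD4, EPHX1, LTC4S, NCF1 and BACH1 were 0.47, 0.35, 0.42, 0.56 and 0.50, each under 1.5-fold. Alternatives for the lines with AZA, the lists and the genes named from them were chosen after seeing the data.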
